A study of Mus musculus with 59 samples.

Results

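Trimethylation of histone H3 at lysine 4 (H3K4me3) and acetylation at lysine 27 (H3K27ac) were compared between the uteri of mice aged 54 to 65 weeks and those of mice aged 28 to 36 weeks. The libraries were chosen by age alone. They were the 10 libraries per mark of aged group 3 (54 to 65 weeks) and the 4 libraries per mark of aged group 1 (28 to 36 weeks), which is 28 of the 59 samples and 14 of the 27 libraries of each mark. All peaks of the authors' tables on chromosomes 1 to 19 and X entered, 25827 of 25835 H3K4me3 peaks and 54354 of 54362 H3K27ac peaks. The series asks how both marks differ between ages, from young mice through 3 older groups, and no young library was used here. All mice were C57/B6, and the labels give no treatment or further allele. Aged group 2 (42 to 48 weeks, 6 animals) is quoted only as a mean where stated, and the 5 input libraries were not used. Chromatin was prepared without crosslinking from about 20000 nuclei of frozen tissue, which the labels call uterus and the protocol calls endometrial pieces. It was precipitated with 250 ng of antibody and sequenced as paired reads of 75 bases. Each animal gave 1 library per mark, so the spread between libraries holds both the animal and its library preparation. The stage of the oestrous cycle was not given in the sources used here.

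H3K4me3 is laid down around transcription start sites by SET1 and MLL family enzymes and marks promoters, with weaker patches at some enhancers. H3K27ac is written by the p300 and CBP acetyltransferases and marks active promoters and enhancers, where it follows cell type closely. The mouse uterus holds a luminal and glandular epithelium, a stroma of fibroblasts, smooth muscle, vessels and leukocytes, and their proportions shift with oestrogen and progesterone over the cycle. A tissue library is a mixture of these cells, and fewer cells of a type cannot be told apart from less of a mark per cell.

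RefSeq promoter sequences (GRCm38.p6, 250 bases before to 50 bases from the start) were read for the starts that lie inside peaks described below. Agmo is shown because it had the only peak that passed the test at the start of its own annotated gene. Gm4311 and C130083M11Rik are shown because their starts fell in 2 further H3K4me3 peaks that passed. Bahcc1, Marchf10 and Wsb1 are shown as promoters with lower values in aged group 3. Capitals mark matches on either strand to 5 motifs. The GC box, bound by Sp family factors, was searched as GGGCGG, and the CCAAT box of the NF-Y factor by the letters of its name. The TATA box, where the TATA-binding protein sits, was searched as TATAAA. For the E-box of basic helix-loop-helix factors the letters were CACGTG. The site of the Fos and Jun pair AP-1 was read as TGANTCA, in which N is any base.
Agmo: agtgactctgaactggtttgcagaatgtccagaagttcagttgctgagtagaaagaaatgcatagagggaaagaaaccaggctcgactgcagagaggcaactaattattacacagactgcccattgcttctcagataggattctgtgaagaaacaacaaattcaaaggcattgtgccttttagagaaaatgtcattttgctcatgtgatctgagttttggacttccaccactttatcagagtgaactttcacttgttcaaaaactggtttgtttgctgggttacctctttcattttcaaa
Gm4311: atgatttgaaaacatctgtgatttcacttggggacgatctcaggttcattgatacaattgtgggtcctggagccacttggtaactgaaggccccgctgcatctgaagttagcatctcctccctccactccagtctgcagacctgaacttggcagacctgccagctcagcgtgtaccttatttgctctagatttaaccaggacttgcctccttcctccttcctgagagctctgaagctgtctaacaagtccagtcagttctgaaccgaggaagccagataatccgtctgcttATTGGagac
C130083M11Rik: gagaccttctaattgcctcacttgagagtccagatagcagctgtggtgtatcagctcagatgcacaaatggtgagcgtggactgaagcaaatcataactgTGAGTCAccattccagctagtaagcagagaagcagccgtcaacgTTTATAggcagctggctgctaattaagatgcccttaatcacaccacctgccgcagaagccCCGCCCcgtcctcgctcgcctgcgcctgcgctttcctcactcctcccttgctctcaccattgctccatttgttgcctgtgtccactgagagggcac
Bahcc1: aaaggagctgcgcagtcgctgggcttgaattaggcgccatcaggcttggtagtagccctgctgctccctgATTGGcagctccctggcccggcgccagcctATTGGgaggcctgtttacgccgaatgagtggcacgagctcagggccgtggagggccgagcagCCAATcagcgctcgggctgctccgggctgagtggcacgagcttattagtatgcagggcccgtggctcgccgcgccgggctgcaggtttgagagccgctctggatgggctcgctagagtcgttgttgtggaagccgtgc
Marchf10: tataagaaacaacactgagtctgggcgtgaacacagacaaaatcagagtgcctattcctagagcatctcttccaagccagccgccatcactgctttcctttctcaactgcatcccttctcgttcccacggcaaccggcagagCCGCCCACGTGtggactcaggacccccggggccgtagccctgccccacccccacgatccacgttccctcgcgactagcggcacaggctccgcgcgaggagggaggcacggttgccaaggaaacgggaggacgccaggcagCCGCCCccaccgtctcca
Wsb1: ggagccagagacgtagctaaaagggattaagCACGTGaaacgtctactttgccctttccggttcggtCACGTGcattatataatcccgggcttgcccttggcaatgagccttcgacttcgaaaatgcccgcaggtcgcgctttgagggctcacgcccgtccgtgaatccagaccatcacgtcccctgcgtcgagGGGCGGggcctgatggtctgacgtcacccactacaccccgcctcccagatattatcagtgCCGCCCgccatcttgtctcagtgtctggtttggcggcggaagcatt
The Agmo promoter (chr12:37241389-37241688, plus strand) held 39.7% G and C and none of the 5 motifs. Gm4311 (chr19:43641958-43642257, minus strand) held 1 CCAAT box. C130083M11Rik (chr5:52216384-52216683, minus strand) held 1 AP-1 site, 1 TATA box and 1 GC box. Bahcc1 (chr11:120232697-120232996, plus strand) held 64.7% G and C and 3 CCAAT boxes. Marchf10 (chr11:105456686-105456985, minus strand) held 2 GC boxes, of which 1 overlapped its E-box, and Wsb1 (chr11:79254646-79254945, minus strand) held 2 GC boxes and 2 E-boxes. Of 32851 RefSeq promoters of the same length, 35.7% held a GC box, 37.4% a CCAAT box, 13.6% a TATA box, 7.2% an E-box and 7.8% an AP-1 site. A match describes the letters and is not evidence of a bound site.

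Total reads ran from 7.232 M to 48.29 M in H3K4me3 aged group 1, where replicate 3 alone exceeded 11.449 M, and from 7.361 M to 12.511 M in aged group 3. In H3K27ac they ran from 10.431 M to 13.361 M and from 7.604 M to 13.334 M. Reads in peaks made up 46.6% to 59.9% and 36.3% to 71.9% of H3K4me3 libraries, and 39.8% to 47.7% and 34.5% to 48.3% of H3K27ac libraries. Values below are log2 RPKM after quantile normalization over the 14 libraries of a mark, and differences are aged group 3 minus aged group 1 on the log2 scale ± SE. A peak passed where its adjusted p in limma's test was under 0.05.

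Markers of the uterine cell types had promoter peaks, with 22 of 28 epithelial, 16 of 23 stromal and 15 of 17 smooth muscle genes measured for H3K4me3. A score per library, the mean of the epithelial markers minus the mean of the stromal markers, set 3 aged group 3 animals apart from the other 7. For H3K4me3 the aged group 1 scores lay between -0.43 and -0.33. The aged group 3 scores of replicates 1 to 10 were 1.04, 2.49, -0.02, 0.03, 1.21, 2.19, 2.04, 1.92, 1.72 and -1.07. For H3K27ac the aged group 1 scores lay between -0.34 and -0.13, and those of aged group 3 were 1.40, 1.92, 0.12, 0.05, 1.35, 1.64, 1.14, 1.20, 1.34 and -1.05. In both marks 9 of 10 aged group 3 libraries were above all 4 of aged group 1, replicates 3 and 4 only narrowly, and replicate 10 was below all of them. The first principal component of H3K4me3 held 48.6% of the variance and placed replicates 3, 4 and 10 (-47.4, -42.3 and -63.8) beside aged group 1 (-64.5 to -48.4), while the other 7 lay between 5 and 79.6.

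**Figure D1:**
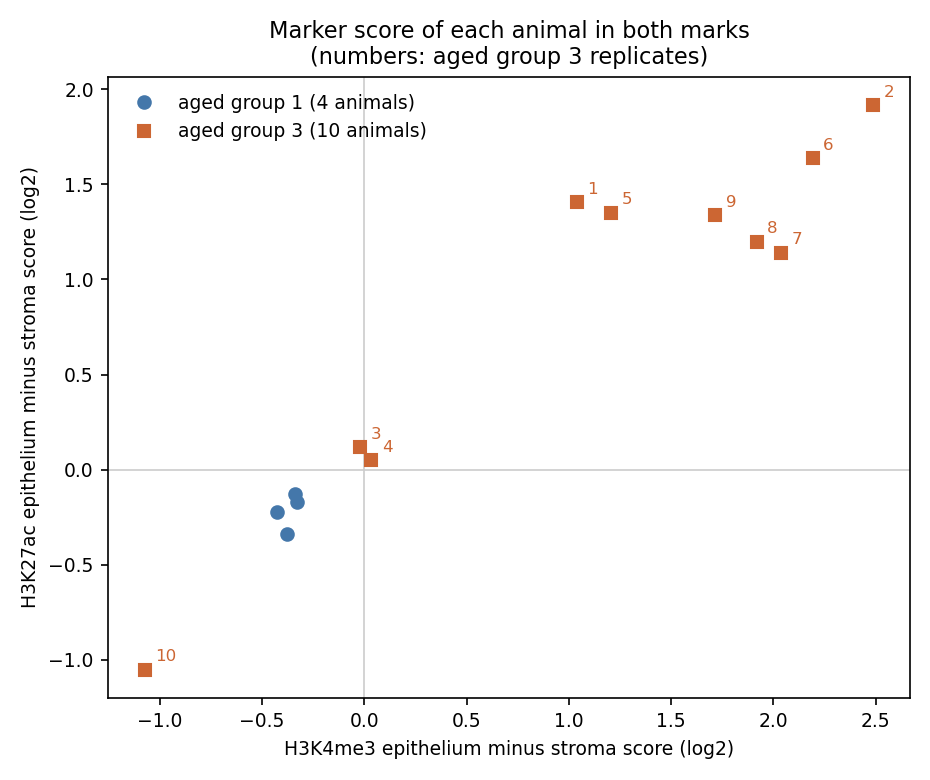
Epithelium minus stroma score of each animal, in H3K4me3 on the horizontal and H3K27ac on the vertical axis (mean log2 RPKM of epithelial markers minus that of stromal markers), with aged group 1 as circles and aged group 3 as numbered squares. The 4 aged group 1 animals sit together just below 0, replicates 3 and 4 of aged group 3 sit near them, replicate 10 lies below at about -1.07 and -1.05, and the other 7 lie above 1.0 on both axes.

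In H3K4me3, 15 peaks passed as higher and 0 as lower in aged group 3. The 15 were 0.0581% of the 25827 peaks tested (limma), and the lower direction held 0%. Without an adjustment, 3089 peaks (12%) were higher and 2965 (11.5%) lower at p under 0.05. Of the 15, 1 was a promoter peak, which means within 1000 bp of the RefSeq start of the gene that the authors' annotation gives it. By the authors' annotation 8 of the others lay in gene bodies, 5 had no gene within 5 kb and 1 lay in a gene's flank. RefSeq places 1 of those 5, on chromosome 5, inside the predicted gene Gm40305. In 14 of 15 every aged group 3 library was above every aged group 1 library, which held for 0.871% of all peaks, with 0.48% below. By that definition replicates 3, 4 and 10, whose marker scores lay nearest to or below aged group 1, were above in these 14 too. Their place there carries no information on the score. With aged groups 1 to 3 normalized together, the mean of the 6 aged group 2 animals lay between those of the other groups at 15 of 15 peaks. It was 1.14 at Dzip1 and 3.10 at Agmo, for example. The 15 were chosen for a gap between the other groups, which favours this order, and its share over all peaks was not counted.

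**Figure D2:**
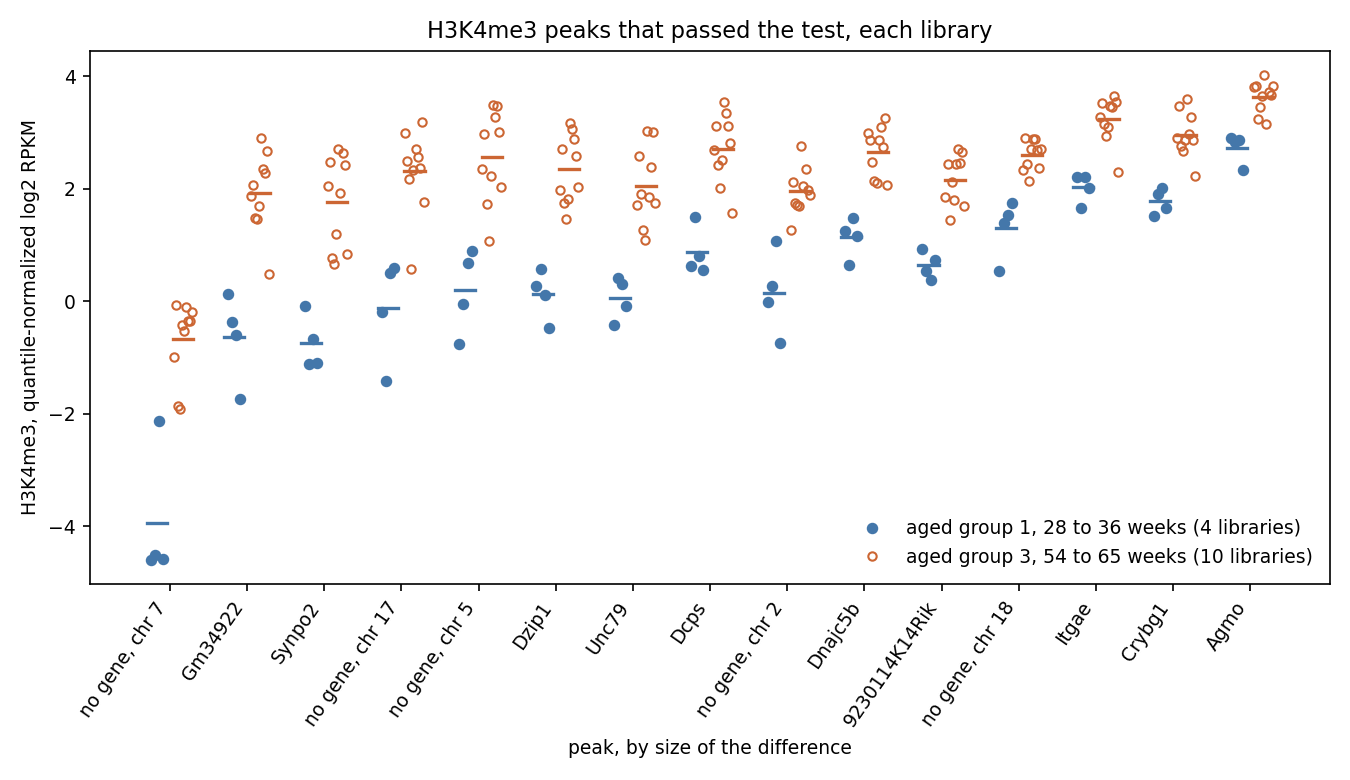
H3K4me3 (quantile-normalized log2 RPKM) of every library at the 15 peaks that passed, ordered from the largest to the smallest difference, with filled circles for aged group 1, open circles for aged group 3 and bars for group means. At every peak but the unnamed one on chromosome 17 the lowest aged group 3 library lies above the highest of aged group 1, and the differences run from 3.27 on chromosome 7 to 0.90 at Agmo.

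The only promoter peak among them belonged to Agmo, which encodes an alkylglycerol monooxygenase that cleaves ether lipids (chr12:37240922-37242822). It read 2.90, 2.82, 2.87 and 2.33 in aged group 1 replicates 1 to 4 and ran from 3.16 through a median of 3.69 to 4.02 in aged group 3. The groups did not overlap, and the peak rose by 0.90 ± 0.15 (adjusted p = 0.0485). It rested on a median of 131.5 reads per library in aged group 1 and 274 in aged group 3, the deepest of the 15. Replicate 4 was the lowest of aged group 1, and the overlapping H3K27ac peak was 0.48 ± 0.16 higher in the mean (adjusted p = 0.162).

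Dzip1, a gene needed to build primary cilia, had a peak inside the gene (chr14:118899379-118900295), 22496 bases from the nearest RefSeq start. Its aged group 1 values were 0.26, 0.58, 0.11 and -0.48, and its aged group 3 values ran from 1.45 (replicate 4) through 2.30 to 3.17. It rose by 2.22 ± 0.33 (adjusted p = 0.0409). The H3K27ac peak at the same place was 1.17 ± 0.31 higher in the mean (adjusted p = 0.133).

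Itgae encodes the integrin alpha E chain by which lymphocytes are held in an epithelium, and its internal peak (chr11:73111553-73112638) read 2.22, 1.65, 2.21 and 2.01 in aged group 1. In aged group 3 it ran from 2.30 through 3.36 to 3.65, a rise of 1.22 ± 0.21 (adjusted p = 0.0485). Replicate 10 held the lowest value, just above the highest of aged group 1, and the other 9 were at 2.94 or more. The H3K27ac peak there was 0.94 ± 0.38 higher in the mean (adjusted p = 0.203), with 9 libraries above and 1 below all of aged group 1.

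Synpo2 encodes an actin-binding protein of muscle. Its internal peak (chr3:123085560-123086659), 149509 bases from the gene's start, read -0.08, -1.12, -0.68 and -1.09 in aged group 1. The aged group 3 range was 0.66 to 2.71 with a median of 1.99, and the peak rose by 2.51 ± 0.43 (adjusted p = 0.0485). Replicates 3, 4 and 10 (0.76, 0.66 and 0.84) were the 3 lowest of aged group 3 and still above all of aged group 1. Among the smooth muscle markers, which include Synpo2, no H3K4me3 promoter peak was more than 0.064 higher in the mean. Dnajc5b, of the cysteine string protein family of chaperones, read 1.25, 0.64, 1.49 and 1.16 in aged group 1 (chr3:19530616-19531182) and 2.06 to 3.26 with a median of 2.80 in aged group 3. It rose by 1.52 ± 0.25 (adjusted p = 0.0485).

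Dcps encodes the scavenger enzyme that removes caps from decayed messenger RNA, and its peak (chr9:35162940-35163589) read 0.62, 1.50, 0.80 and 0.55 in aged group 1. Its aged group 3 values ran from 1.56 through 2.75 to 3.54, a rise of 1.84 ± 0.32, with replicate 10 (1.56) just above aged group 1 replicate 2. Crybg1, which encodes a protein with crystallin-fold domains, read 1.52, 1.91, 2.01 and 1.66 (chr10:44037467-44038818) and 2.23 to 3.59 with a median of 2.89, a rise of 1.19 ± 0.21. Both groups of values were separate at both peaks. Unc79 encodes a subunit of the NALCN sodium leak channel complex, and its peak (chr12:103060835-103061561) read -0.43, 0.41, 0.31 and -0.08 against 1.08 to 3.02 with a median of 1.88, a rise of 2.00 ± 0.36. Adjusted p was 0.0485 for each of the 3 genes. At Dcps and Crybg1 the overlapping H3K27ac peaks were 0.45 ± 0.17 and 0.87 ± 0.36 higher in the mean (adjusted p = 0.19 and 0.207).

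Of the peaks named only by predicted or clone genes, the one in the flank of Gm34922 (chr19:43641589-43642241) held the RefSeq start of Gm4311, whose promoter is shown above. It read 0.14, -0.38, -0.60 and -1.74 in aged group 1 and 0.48 (replicate 10) to 2.90 with a median of 1.96 in aged group 3. It rose by 2.56 ± 0.41. The peak within 9230114K14Rik (chr5:52216100-52216902) held the start of C130083M11Rik, also shown above. It read 0.93, 0.54, 0.37 and 0.73 against 1.44 to 2.71 with a median of 2.28, and rose by 1.52 ± 0.27. Adjusted p was 0.0485 at both, and the groups did not overlap at either.

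The 5 peaks to which the authors' annotation gives no gene within 5 kb rose by 1.31 to 3.27. The peak chr18:68724377-68725112 read 0.53, 1.39, 1.53 and 1.74 against 2.13 to 2.90 with a median of 2.69 (1.31 ± 0.22). At chr2:163431081-163431789 the values were -0.02, 0.27, 1.06 and -0.75 against 1.26 to 2.77 with a median of 1.93 (1.82 ± 0.32). At chr5:53928629-53930621, inside Gm40305 in RefSeq, they were -0.76, -0.04, 0.68 and 0.90 against 1.07 to 3.49 with a median of 2.67 (2.37 ± 0.42). These 3 peaks had no overlap between groups, and at the last the H3K27ac peak was 1.44 ± 0.32 higher in the mean (adjusted p = 0.116). The peak chr17:68263433-68264224, 9573 bases from the nearest start, that of L3mbtl4, read -0.19, -1.41, 0.51 and 0.59 against 0.57 to 3.19 with a median of 2.43 (2.44 ± 0.43). Here aged group 3 replicate 4 lay just under aged group 1 replicate 4, and 9 of 10 libraries were above. Adjusted p was 0.0485 at these 4 peaks.

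The smallest p of the mark belonged to chr7:17539150-17541083, 11476 bases from the start of Gm32846, with an adjusted p of 0.0269. It held 0 to 24 reads per library in aged group 1, with a median of 0, and 5 to 19 in aged group 3, with a median of 13.5. The aged group 1 library with reads was replicate 3, the deepest of all at 48.29 M. Values were -4.59, -4.51, -2.13 and -4.58 against -1.91 to -0.07 with a median of -0.39. The difference of 3.27 ± 0.45 thus depends on the value the tables give a peak without reads and is not a bound.

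The 15 peaks were small and weak for the mark. Their lengths ran from 567 to 1993 bases, 12 of 15 lay below the median level of all H3K4me3 peaks, and median reads per library ran from 0 to 131.5 in aged group 1 and from 13.5 to 274 in aged group 3. An H3K27ac peak overlapped 9 of them, with a higher mean at 8 and an unadjusted p under 0.05 at 6. Of all H3K4me3 peaks 80.9% overlapped one, and of all H3K27ac peaks 11.5% were higher at that p. Both marks came from the same animals, so the 2 are not independent. The direction of all 15 was the same within the library-code digits 1 to 4 that both groups share (4 against 4 libraries, 0.84 to 2.93) and among mouse numbers above 100 (4 against 7, 0.88 to 3.46). The groups did not overlap at 14 of the 15, so the direction in any subset of the libraries was all but fixed in advance. None passed in those smaller sets (adjusted p = 0.451, and from 0.063 to 0.0765), and the labels do not say what the digit or number stands for. With the marker score as a covariate the differences were 0.72 to 2.81 and none passed (adjusted p from 0.386 to 0.466). With 1 library left out, 15 of 15 passed without aged group 3 replicate 3, 4 or 10, and 7 without aged group 1 replicate 2. Without aged group 3 replicate 5 or 7, 2 passed, without aged group 1 replicate 3, 1 passed, and without any of the other 7 libraries, or after median centring, 0 passed.

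No H3K4me3 peak passed the adjusted threshold as lower in aged group 3. The peaks of smallest p in that direction under the naming rule given in the processing section, with adjusted p between 0.0507 and 0.065, are given as values. Marchf10, of a family of membrane-bound ubiquitin ligases, read 2.66, 2.76, 2.19 and 2.63 at its promoter in aged group 1 (chr11:105456427-105457185) and 0.10 to 1.89 with a median of 1.04 in aged group 3. The groups did not overlap, and the difference was -1.59 ± 0.31. Ppp1r13l, which encodes the p53-binding inhibitor iASPP, read 2.39, 1.92, 2.36 and 1.53 at an internal peak (chr7:19369875-19370232) and -0.58 to 0.97 with a median of 0.30, a difference of -1.74 ± 0.36. That peak held 0 to 8 reads per library in aged group 3. Cilp2, which encodes a cartilage matrix protein, had 1 to 15 reads there against 17 to 74 in aged group 1, a difference of -2.46 ± 0.56 (chr8:69881927-69882677).

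Bahcc1 encodes a protein whose BAH domain reads methylated histone H3, and its promoter peak (chr11:120232116-120238887) had 108 to 3057 reads per library. It read 3.35, 3.03, 3.38 and 3.36 in aged group 1 and 1.61 to 2.85 with a median of 1.94 in aged group 3. All 10 libraries were below all 4, by -1.12 ± 0.24 in the mean (adjusted p = 0.056). H3K27ac at the same promoter read 1.76, 1.44, 1.76 and 1.77 against 0.07 to 1.83 with a median of 0.73, with 9 of 10 below and 1 above (-0.94 ± 0.28, adjusted p = 0.142). Klf6, a zinc finger transcription factor of the early response to injury, was the best-covered of these promoters (633 to 6600 reads). It read 4.75, 4.71, 4.67 and 4.88 against 4.23 to 4.60 with a median of 4.48, without overlap (-0.29 ± 0.07, adjusted p = 0.0637), and in the values as deposited its difference was -0.13.

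No H3K27ac peak passed in either direction (0% of 54354 by limma, smallest adjusted p = 0.0647). At an unadjusted p under 0.05, 6240 peaks (11.5%) were higher and 4773 (8.78%) lower. All 10 aged group 3 libraries were above all 4 of aged group 1 at 271 peaks (0.499%) and below at 173 (0.318%). The mean differed by more than 2-fold at 2849 peaks upward (5.24%) and 664 downward (1.22%), against 1257 (4.87%) and 798 (3.09%) in H3K4me3. The spread was also wider in H3K27ac, with a median SD of 0.39 in aged group 1 and 0.48 in aged group 3, against 0.235 and 0.354 in H3K4me3.

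Under the naming rule given in the processing section, the higher H3K27ac peaks of smallest p were internal peaks. At each of them all 10 aged group 3 libraries lay above aged group 1. Peaks that the rule does not name lay elsewhere too. The smallest adjusted p was also 0.0647 among flank peaks, and it was 0.067 among promoter peaks and among those with no gene within 5 kb. Lcmt1, which encodes the methyltransferase of protein phosphatase 2A, read -0.93, 0.31, 0.06 and -0.92 in aged group 1 (chr7:123420998-123422939) and 1.07 to 1.87 with a median of 1.48 (1.88 ± 0.27, adjusted p = 0.0647). Alcam, an adhesion molecule of the immunoglobulin family, read -0.89, -0.85, -0.24 and -0.77 (chr16:52442717-52443437) and 0.12 (replicate 3) to 2.35 with a median of 2.02 (2.33 ± 0.38). Tmem80, a membrane protein of the ciliary transition zone, read 0.69, 1.04, 0.73 and 0.57 (chr7:141330936-141332924) and 1.54 to 1.98 with a median of 1.77 (1.00 ± 0.17). At Tmem80 replicates 10 and 4 (1.54 and 1.58) were the lowest of aged group 3 and replicate 3 (1.79) lay among the others. In RefSeq this peak overlaps the gene Deaf1. Further differences were 1.74 ± 0.28 at Sestd1, which encodes a spectrin-domain protein, and 1.58 ± 0.27 at Acsm3, an acyl-CoA synthetase gene, both with adjusted p = 0.067 like Alcam and Tmem80. Uqcrc2, a subunit of respiratory complex III, was 1.58 ± 0.28 higher (adjusted p = 0.0864).

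In the lower direction the H3K27ac peaks of smallest p under the naming rule lay at promoters and inside genes, with adjusted p of 0.116 to 0.119. Actrt3, which encodes an actin-related protein, read 1.74, 2.00, 1.61 and 1.77 at its promoter (chr3:30599561-30600430) against -0.38 to 1.14 with a median of 0.48 (-1.26 ± 0.28). Its H3K4me3 did not share the difference (0.01 ± 0.07). Wsb1, a substrate receptor of a ubiquitin ligase, read 2.36, 2.58, 2.48 and 2.60 at the promoter shown above (chr11:79252527-79255285) against 1.58 to 2.23 with a median of 1.95 (-0.57 ± 0.13). Slc37a2, a sugar phosphate transporter gene, read 2.05, 2.40, 2.27 and 2.23 (chr9:37254557-37256583) against 1.12 to 2.05 (-0.83 ± 0.19). All 10 libraries were below all 4 at each of these promoters, and the H3K4me3 differences at Wsb1 and Slc37a2 were -0.10 ± 0.09 and -0.15 ± 0.14. Inside genes, Wls, which carries Wnt proteins to the cell surface (-1.14 ± 0.26), and the oxidoreductase gene Wwox (-1.02 ± 0.24) were below in 10 of 10. The repressor gene Zeb2 was below in 9 (-1.76 ± 0.40), with replicate 10 at 1.95 inside the aged group 1 range.

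The more frequent direction differed by where a peak lay. Among H3K4me3 promoter peaks 6.91% were higher and 12.4% lower at an unadjusted p under 0.05, whereas among peaks with no gene within 5 kb in the authors' annotation 18.8% were higher and 8.29% lower. Gene body peaks stood at 15.1% and 12%, and peaks in gene flanks, within 5 kb outside the gene, at 18.1% and 6.65%. In H3K27ac too the lower peaks were the larger share only at promoters, with 4.34% and 14.8% at promoters, 13% and 7.29% in gene bodies, 14.6% and 6.99% in flanks and 13.8% and 7.24% away from genes. These are counts of peaks, which are not independent, and the difference between positions was not tested. A peak counted as promoter only by the RefSeq start of its annotated gene, and 16774 of 18815 gene symbols were found in RefSeq. The other positions thus hold some peaks at starts too, such as those of Gm4311 and C130083M11Rik. Over all peaks the split depended on scaling, with 3529 higher and 1058 lower in the H3K4me3 values as deposited, and 2878 and 8145 in H3K27ac. The median difference of all peaks was -0.02 after quantile normalization and 0.12 as deposited for H3K4me3, and -0.09 and -0.27 for H3K27ac.

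**Figure D3:**
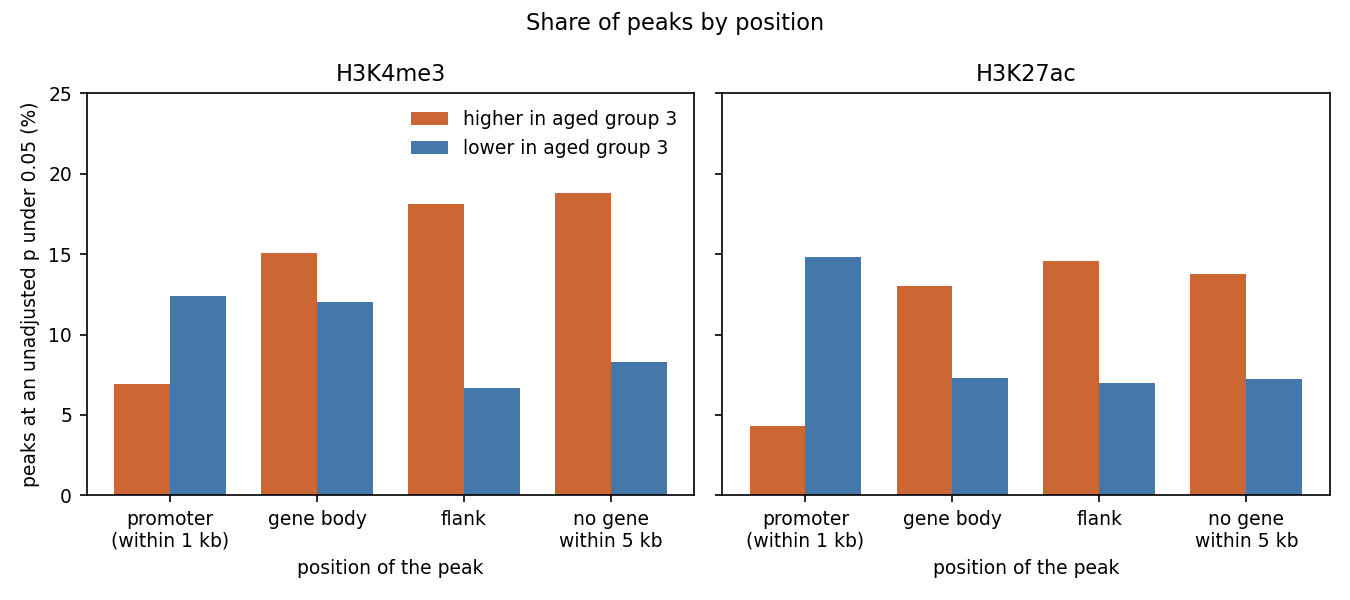
Share of peaks in percent (vertical axis) that were higher or lower in aged group 3 at an unadjusted p under 0.05, for each position of the peak (horizontal axis) and each mark. Lower peaks are the larger share at promoters (12.4% and 14.8%), and higher peaks are the larger share at every other position.

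Cell type markers were then read at their promoter peaks, 1 per gene. Of all such H3K4me3 peaks 6.93% were higher and 12.4% lower at an unadjusted p under 0.05, with a median of -0.04, and of H3K27ac peaks 4.32% and 14.9%, with a median of -0.16. Adjusted, 0.00851% of these H3K4me3 peaks were higher and 0% lower, 0% of the H3K27ac peaks either way, and none of the listed genes passed in limma's test. For the luminal and glandular epithelium, 18 of 22 H3K4me3 and 10 of 21 H3K27ac peaks were higher and 0 lower, with medians of 0.57 and 0.42. The adhesion gene Epcam read 3.08, 2.82, 2.73 and 2.50 in H3K4me3 (chr17:87635611-87640009) against 3.01 to 4.17 with a median of 3.76 (0.88 ± 0.22, adjusted p = 0.0744). Prom1, an apical membrane protein gene, read 2.85, 2.57, 2.78 and 2.58 against 2.70 to 4.28 with a median of 3.93 (0.98 ± 0.26, adjusted p = 0.0839). In H3K27ac the gland regulator Sox17 read 2.79, 2.20, 2.59 and 2.19 (chr1:4487486-4501497) against 2.45 to 3.61 with a median of 3.29 (0.73 ± 0.17, adjusted p = 0.116). At each of the 3 genes 8 or 9 libraries were above all of aged group 1, and the lowest aged group 3 library lay within its range.

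None of the epithelial genes passed in either mark with all libraries, or without aged group 1 replicate 4. Without aged group 3 replicate 10, whose epithelial scores were the lowest, 18 of 22 passed in H3K4me3 and 7 of 21 in H3K27ac, without replicate 3 these were 3 and 1, and without replicate 4 they were 2 and 0. In the values as deposited 22 of 22 were higher in H3K4me3 at the unadjusted threshold, 4 of them adjusted, and 5 of 21 in H3K27ac. Within code digits 1 to 4 the epithelial medians were 0.53 and 0.43, and among mouse numbers above 100 they were 0.59 and 0.38, with 0 genes passing. With the marker score as a covariate, which these genes themselves define in part, the medians were 0.05 and 0.04. The epithelial score was 2.48 to 2.88 in aged group 1 and 2.33 to 4.01 in aged group 3 for H3K4me3, and 1.52 to 1.90 and 1.26 to 2.45 for H3K27ac.

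Stromal markers stood the other way, with 0 higher and 11 of 16 lower in H3K4me3 and 0 higher and 8 of 16 lower in H3K27ac (medians -0.75 and -0.74). In the values as deposited 4 of 16 and 12 of 16 were lower, with medians of -0.77 and -0.99. Hoxd11, a posterior HOX gene of the reproductive tract, read 3.51, 3.22, 3.37 and 3.03 in H3K4me3 (chr2:74678704-74701585) against 0.95 to 3.42 with a median of 1.89 (-1.25 ± 0.40, adjusted p = 0.114). Meis2, a HOX cofactor, read 3.63, 3.48, 3.78 and 3.40 against 2.66 to 3.61 with a median of 3.04 (-0.54 ± 0.16, adjusted p = 0.0992). In both, 8 libraries were below all of aged group 1 and 2 were within its range. In H3K27ac the intermediate filament gene Vim and the fibronectin gene Fn1 were -0.85 ± 0.31 and -0.67 ± 0.26 (adjusted p = 0.175 and 0.187). The stromal score ran from 2.91 to 3.26 in aged group 1 and from 1.52 to 3.40 in aged group 3 for H3K4me3.

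Of the other cell types, smooth muscle had 0 higher and 8 of 15 lower in H3K4me3 and 0 and 2 of 11 in H3K27ac (medians -0.62 and -0.38), with the gamma smooth muscle actin gene Actg2 at -0.96 ± 0.35. In H3K4me3 only 2 of the 15 were lower in the values as deposited, and 2 of 15 within code digits 1 to 4 (medians -0.60 and -0.48). Endothelium had 2 higher and 6 lower of 15, and 2 and 0 of 8 (medians -0.61 and -0.41). Its members differed in direction. Sox7, a SOX factor of vessels, read 2.44, 2.73, 2.91 and 2.67 against 2.87 to 4.50 with a median of 3.95 in H3K4me3 (1.15 ± 0.28, adjusted p = 0.0687), while the VEGF receptor gene Kdr read 2.96, 2.97, 3.14 and 2.96 against 1.65 to 3.02 with a median of 2.30 (-0.75 ± 0.23, adjusted p = 0.104). In the list of mesothelium, fat cells and pericytes 3 of 6 and 1 of 4 were lower and 0 higher (medians -0.79 and 0.07). The mesothelial genes Upk3b and Msln were -1.60 ± 0.52 and -1.58 ± 0.54 in H3K4me3. The pericyte potassium channel gene Kcnj8 was below in all 10 libraries in H3K27ac (-0.72 ± 0.26, adjusted p = 0.171).

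Leukocyte markers had 3 higher and 4 lower of 18 in H3K4me3 (median -0.46) and 1 higher and 0 lower of 12 in H3K27ac (median -0.09). The sign depended on aged group 1 replicate 4. Its leukocyte score was 3.04 in H3K4me3 and 2.33 in H3K27ac, above every other library, and without it the medians were 0.02 and 0.32, with 5 higher and 1 lower of 18. Gata3, a transcription factor of T cells and innate lymphocytes, read 1.03, 0.49, 0.57 and 0.74 in H3K4me3 (chr2:9888864-9890388) against 1.29 to 2.77 with a median of 2.43. All 10 libraries were above all 4 (1.49 ± 0.30, adjusted p = 0.0507). Ikzf3, a lymphoid zinc finger gene, read 2.60, 2.99, 2.98 and 2.82 against 2.92 to 4.40 with a median of 4.05 (1.00 ± 0.21, adjusted p = 0.057), and 0.75 ± 0.25 in H3K27ac. Csf1r, the macrophage growth factor receptor gene, read 1.33, 1.33, 1.43 and 3.73 against 0.37 to 1.83 (-0.95 ± 0.40, adjusted p = 0.171), and replicate 4 alone of aged group 1 lay above all of aged group 3.

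**Figure D4:**
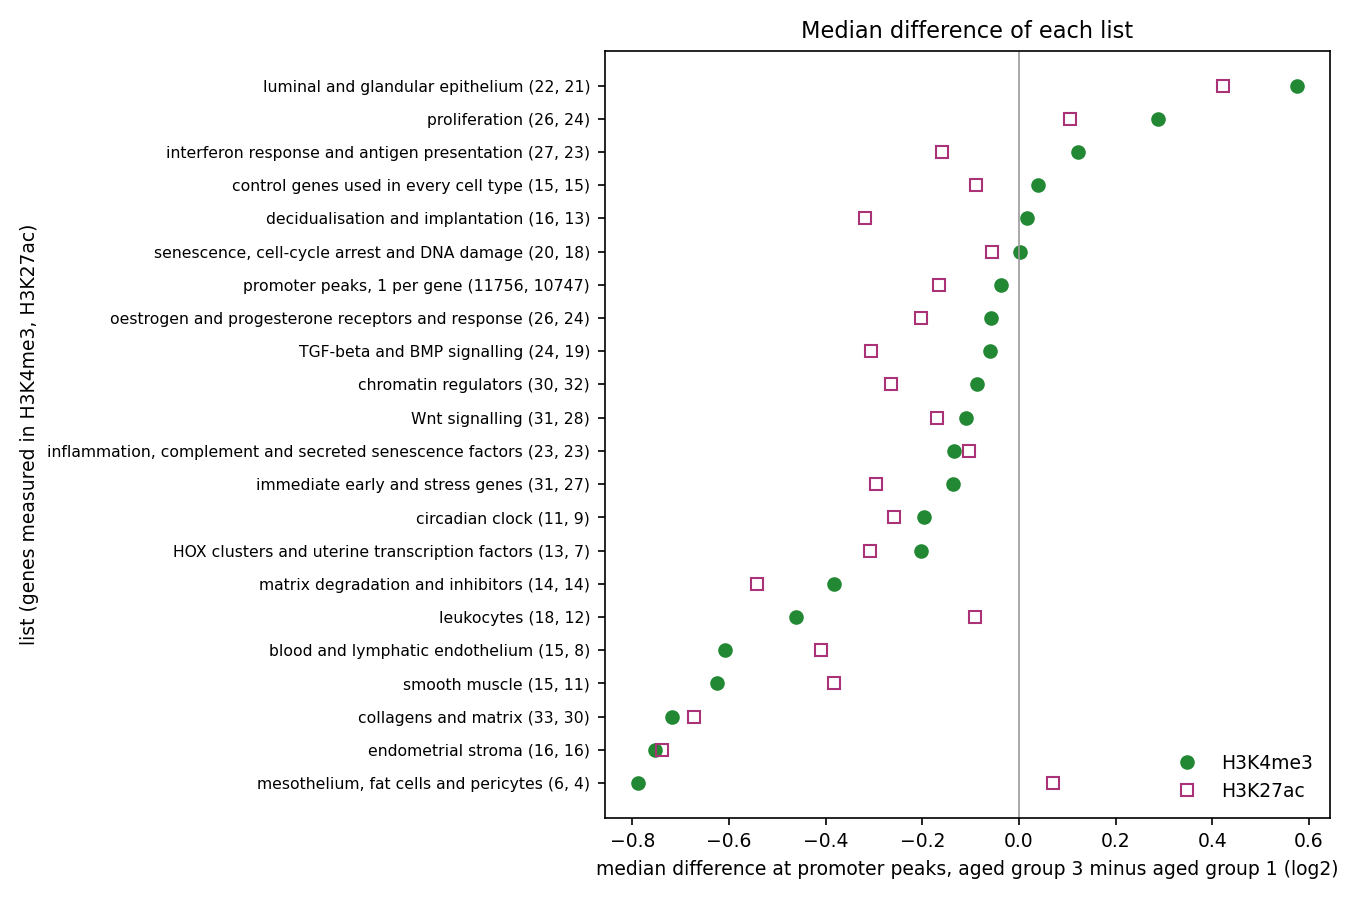
Median difference (log2, aged group 3 minus aged group 1, horizontal axis) of the promoter peaks of each gene list (vertical axis, with the number of genes measured in H3K4me3 and H3K27ac), as filled circles for H3K4me3 and open squares for H3K27ac. The epithelium lies farthest to the right (0.57 and 0.42), the stroma and the collagens lie at the left in both marks (-0.75 and -0.74, -0.72 and -0.67), and promoter peaks of all genes lie at -0.04 and -0.16.

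Genes of the extracellular matrix lay with the stroma, and the 2 lists share Col1a1, Col1a2, Dcn, Lum and Fn1. Of the collagens and other matrix genes 18 of 33 were lower and 0 higher in H3K4me3, and 15 of 30 lower and 1 higher in H3K27ac (medians -0.72 and -0.67). As deposited, 10 of 33 and 23 of 30 were lower and 1 higher in each mark, and within code digits 1 to 4 the lower genes were 8 of 33 and 9 of 30. Col4a1, a basement membrane collagen chain, read 3.33, 3.24, 3.45 and 3.02 in H3K4me3 (chr8:11309416-11315033) against 1.34 to 3.19 with a median of 2.13 (-0.99 ± 0.31, adjusted p = 0.111). In H3K27ac it read 1.68, 1.59, 1.80 and 1.76 against 0.15 to 1.89 with a median of 0.84 (-0.78 ± 0.29, adjusted p = 0.183). In both marks 8 libraries were below all of aged group 1. The exception was Fbln1, a fibulin gene, 0.50 ± 0.16 higher in H3K27ac (adjusted p = 0.152). With the marker score as a covariate, which the shared genes define in part, the collagen medians were 0.02 and 0.01. Among matrix proteases and their inhibitors 7 of 14 and 8 of 14 were lower and 0 higher (medians -0.38 and -0.54), with the inhibitor gene Timp2 at -0.81 ± 0.26 and -0.78 ± 0.26, and as deposited 2 and 10 were lower.

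Hormone and implantation genes went both ways. Of the oestrogen and progesterone receptors and response genes 5 of 26 were higher and 8 lower in H3K4me3, and 8 of 24 higher and 2 lower in H3K27ac (medians -0.06 and -0.20). Padi1, a peptidylarginine deiminase gene known to respond to oestrogen, read 0.59, -0.16, -0.29 and 0.09 in H3K4me3 (chr4:140840737-140846493) against -0.07 to 4.15 with a median of 3.23 (2.44 ± 0.77, adjusted p = 0.108). In H3K27ac it read 0.28, 0.29, -0.56 and -0.37 (chr4:140840661-140853800) against 0.37 to 2.40 with a median of 1.70 (1.63 ± 0.38, adjusted p = 0.116). Its H3K27ac groups did not overlap, while 8 of 10 libraries were above in H3K4me3. The prolactin receptor gene Prlr read 2.69, 2.47, 2.74 and 2.74 against 1.08 to 2.72 with a median of 1.32 in H3K4me3 (-1.10 ± 0.29, adjusted p = 0.0797). Bmp2, a growth factor of decidual change, was -0.97 ± 0.28 (adjusted p = 0.096), and the growth arrest gene Gas1 was -0.93 ± 0.33 in H3K27ac (adjusted p = 0.17). In decidualisation and implantation 3 of 16 were higher and 5 lower in H3K4me3 and 2 and 4 of 13 in H3K27ac (medians 0.02 and -0.32), among them the signal transducer gene Stat3 at -0.46 ± 0.15 in H3K27ac (adjusted p = 0.155).

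In the HOX and uterine transcription factor list 3 of 13 were higher and 4 lower in H3K4me3, and 1 and 2 of 7 in H3K27ac (medians -0.20 and -0.31). Foxc1, a forkhead factor gene, read 1.47, 0.17, 1.44 and 1.55 in H3K27ac (chr13:31805367-31812683) against 1.58 to 2.85 with a median of 2.31. Its 10 libraries were above all 4 (1.14 ± 0.26, adjusted p = 0.116), with aged group 1 replicate 2 far below the other 3, and H3K4me3 there was 0.82 ± 0.21 higher (adjusted p = 0.0779). Hoxc10 read 2.03, 0.92, 2.05 and 2.08 in H3K4me3 (chr15:102964990-102968240) against -0.29 to 1.55 with a median of 0.44 (-1.38 ± 0.35, adjusted p = 0.0744), and 9 of 10 libraries were below. Hoxc5 in the same cluster was -1.16 ± 0.30 (adjusted p = 0.0779), and Pax2, a regulator of the female tract, was 0.84 ± 0.23 (adjusted p = 0.0887).

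Signalling lists were read at an unadjusted p under 0.05 in the same way. Over all promoter peaks, 1 per gene, 6.93% were higher and 12.4% lower in H3K4me3, and 4.32% and 14.9% in H3K27ac. In the values as deposited, where the median of all H3K4me3 peaks was 0.12, the H3K4me3 medians were above 0 for the hormone (0.11), TGF-beta and BMP (0.10), Wnt (0.06), inflammation (0.03), chromatin (0.08) and immediate early lists (0.01), all still below that of all peaks. The counts higher and lower there were 8 and 3 for the hormone list, 2 and 1 for TGF-beta and BMP, 5 and 0 for Wnt, 3 and 3 for inflammation, and 0 and 1 for chromatin. TGF-beta and BMP genes had 1 higher and 6 lower of 24, and 0 and 4 of 19 (medians -0.06 and -0.31). The type II TGF-beta receptor gene Tgfbr2 read 3.79, 3.74, 3.73 and 3.89 in H3K4me3 (chr9:116169836-116176322) against 3.24 to 3.65 with a median of 3.47. All 10 libraries were below all 4 (-0.29 ± 0.09, adjusted p = 0.0975, and -0.14 in the values as deposited), and H3K27ac was -0.48 ± 0.15 (adjusted p = 0.142). Wnt genes had 4 higher and 5 lower of 31, and 3 and 2 of 28 (medians -0.11 and -0.17). Wnt7b, an epithelial Wnt ligand, was 0.80 ± 0.25 and 1.02 ± 0.37 higher (adjusted p = 0.105 and 0.173), and the receptor gene Fzd7 was -0.40 ± 0.14 and -0.66 ± 0.24 (adjusted p = 0.124 and 0.175).

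Interferon and antigen presentation genes had 3 higher and 0 lower of 27 in H3K4me3 and 0 and 3 of 23 in H3K27ac (medians 0.12 and -0.16). Over all promoter peaks, 1 per gene, the medians were -0.04 and -0.16. Of those peaks 6.93% were higher and 12.4% lower in H3K4me3, and 4.32% and 14.9% in H3K27ac. Oas2, an antiviral oligoadenylate synthetase gene, read 2.13, 1.99, 0.53 and 2.29 against 1.50 to 4.30 with a median of 3.15 (1.28 ± 0.54, adjusted p = 0.171), with aged group 1 replicate 3 the lowest of all 14. Inflammation, complement and secreted factors had 2 higher and 6 lower of 23 in both marks (medians -0.13 and -0.10). Complement factor B, Cfb, read 1.39, 1.21, 0.27 and 1.09 in H3K4me3 (chr17:34858291-34863258) against 1.01 to 4.24 with a median of 3.17 (1.79 ± 0.55, adjusted p = 0.107) and was 0.88 ± 0.32 higher in H3K27ac. The growth factor binding protein genes Igfbp6 and Igfbp4 were -1.23 ± 0.41 and -0.80 ± 0.32 in H3K4me3 (adjusted p = 0.117 and 0.155).

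Senescence, cell-cycle arrest and DNA damage genes had 3 higher and 2 lower of 20, and 1 and 3 of 18, with medians of 0.00 and -0.06. Cdkn2c, a cyclin-dependent kinase inhibitor gene, read 2.73, 2.75, 2.69 and 2.75 in H3K27ac (chr4:109663584-109668310) against 1.97 to 2.67 with a median of 2.49, below in 10 of 10 (-0.28 ± 0.12, adjusted p = 0.226). Cdkn2b, another inhibitor, was 0.50 ± 0.23 in H3K27ac (adjusted p = 0.237), above in 9 libraries and below in replicate 10. Proliferation genes had 3 higher and 0 lower of 26, and 0 and 3 of 24 (medians 0.29 and 0.11). In H3K4me3, 17 of 26 were higher in the values as deposited (median 0.45), 12 without aged group 3 replicate 3, 11 without replicate 4 and 8 without replicate 10.

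Chromatin regulators had 1 higher and 4 lower of 30, and 0 and 7 of 32 (medians -0.09 and -0.27). The X-linked H3K4 demethylase gene Kdm5c read 2.00, 2.26, 2.14 and 2.33 in H3K27ac (chrX:152232077-152235574) against 1.42 to 1.93 with a median of 1.72, below in 10 of 10 (-0.46 ± 0.14, adjusted p = 0.142). Immediate early and stress genes had 2 higher and 6 lower of 31, and 0 and 10 of 27 (medians -0.14 and -0.29). In the H3K4me3 values as deposited 5 were higher and 0 lower. Atf3, a stress-induced transcription factor gene, read 2.39, 2.06, 2.13 and 2.40 in H3K27ac against 0.90 to 2.11 with a median of 1.31, below in 9 of 10 (-0.82 ± 0.22, adjusted p = 0.133). Clock genes had 0 higher and 2 lower of 11, and 0 and 2 of 9 (medians -0.20 and -0.26). Of the housekeeping control genes 0 of 15 were past the unadjusted threshold in H3K4me3 and 2 of 15 were lower in H3K27ac (medians 0.04 and -0.09). One of those 2, the small GTPase gene Rab7, read 2.13, 1.94, 2.08 and 2.05 against 1.44 to 1.87 with a median of 1.62, below in 10 of 10 (-0.39 ± 0.14, adjusted p = 0.178).

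The places where both marks separated the groups were counted next. Of the H3K4me3 peaks 20883 (80.9%) overlapped an H3K27ac peak, including 181 of those with all 10 libraries above and 92 of those with all 10 below. Both marks were above at 5 of those 181 (2.76%) and both below at 2 of those 92 (2.17%), beside 0.499% and 0.318% of all H3K27ac peaks, and they were opposite at 0. These shares were not tested against each other. The 5 above lay within Kctd1, Alox15 and Gm35019, beside Gm30584, and at chr8:89011918-89013205. At Alox15, which encodes a lipoxygenase, H3K4me3 ran from 2.02 to 2.95 in aged group 1 and from 2.98 to 3.89 in aged group 3 (0.71 ± 0.18, adjusted p = 0.0707). H3K27ac there ran from 0.40 to 1.10 and from 1.26 to 2.11 (0.97 ± 0.20, adjusted p = 0.0997). The 2 below were a peak that the authors' annotation gives to Mir155hg, the host gene of a microRNA of leukocytes, and that lies 8813 bases from it in RefSeq, and the promoter of Rab8b, a vesicle transport GTPase gene. Rab8b ran from 4.07 to 4.25 and from 3.45 to 4.04 in H3K4me3 (-0.31 ± 0.10) and from 1.93 to 2.37 and from 0.78 to 1.90 in H3K27ac (-0.73 ± 0.21).

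Single libraries moved the counts of peaks that passed more than any other choice but library weights. Without aged group 3 replicate 10, 1485 H3K4me3 peaks were higher and 696 lower, and 1720 and 392 in H3K27ac. Without replicate 3 the counts were 574 and 134, and 706 and 73. Without replicate 4 they were 584 and 219, and 3 and 0. These are the 3 libraries whose marker scores lay nearest to or below aged group 1. All 15 H3K4me3 peaks named above passed in each of those 3 sets. Leaving out any other aged group 3 library left at most 2 peaks, and without aged group 1 replicate 4 none passed in either mark.

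**Figure D5:**
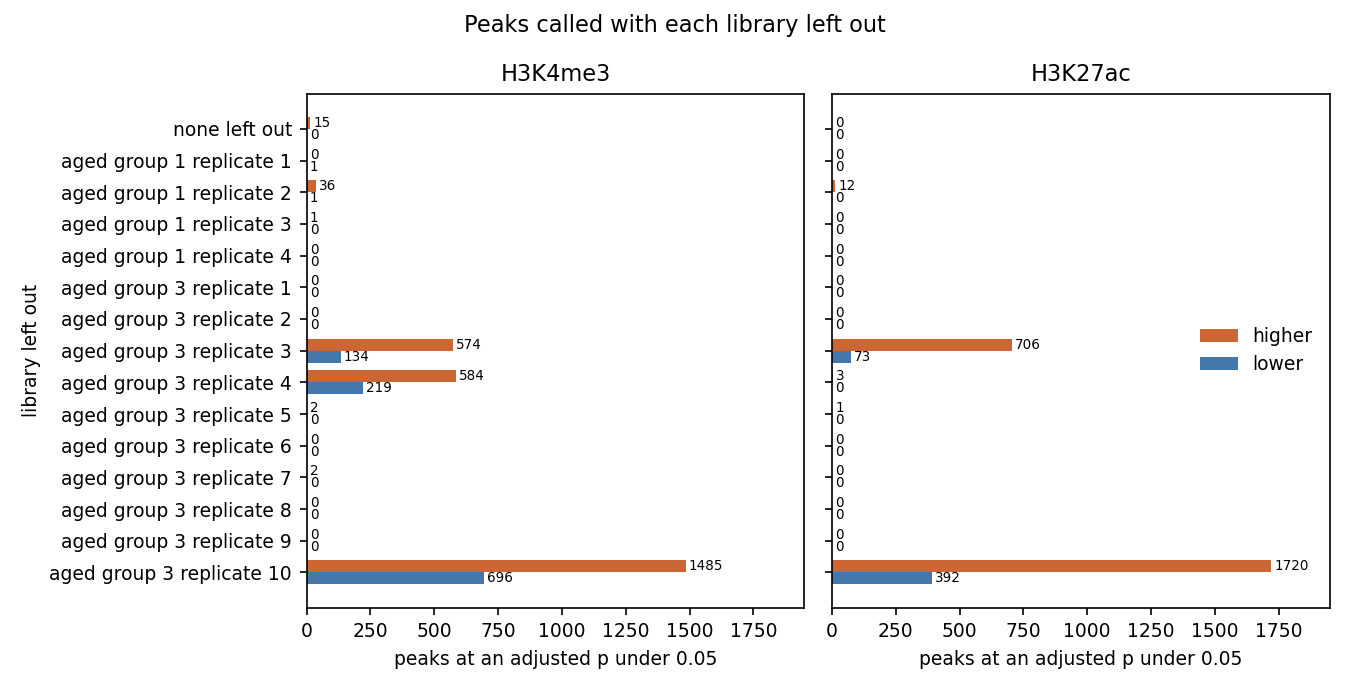
Number of peaks at an adjusted p under 0.05 (horizontal axis) when each library is left out (vertical axis), higher and lower in aged group 3, for each mark. The bars are longest without aged group 3 replicate 10 (1485 and 696 for H3K4me3, 1720 and 392 for H3K27ac), and most other bars are at or near 0.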

How the data were processed

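H3K4me3 and H3K27ac were profiled by native ChIP-seq of mouse uterus, 1 library per animal and mark. The authors deposited 1 table per mark of log2 RPKM values, with the same peaks for every library of the mark. The submitters' processing notes name the GRCm38 build, DESeq2, Bowtie2, deepTools 3.5.1, ChIPseeker 1.34.1, DiffBind 3.8.0 and MACS2 2.2.9.1, without their roles. Read numbers behind peaks were recovered from the steps of the values, with a tolerance of 0.05 of a read for a whole number.

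The deposited log2 values of the 14 libraries of a mark were quantile normalized and fitted with limma 3.58.1 in R 4.3.3 (group as the only term, trended variance, two-sided, Benjamini-Hochberg over all peaks, threshold 0.05), without a filter on low values. The fit was tested on simulated data with known changes, whose errors were independent between peaks and of equal spread in both groups. In the real data the SD was larger in aged group 3 at 70.4% of H3K4me3 peaks. The simulation therefore does not show how the fit behaves on these libraries. The p-values measure the spread between these libraries. A promoter peak lies within 1000 bp of the RefSeq start of the gene that the authors' annotation gives it. For gene lists the promoter peak of highest mean was taken. Of 18815 gene symbols 16774 were found in RefSeq GRCm38.p6 on the same chromosome.

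Named peaks were, per mark and direction, up to 12 peaks of smallest p among those that passed, with a gene symbol that is not a predicted or clone name and its higher group mean not under the lower quartile of all peaks, filled with peaks that did not pass up to 6. One peak that the rule names is not reported here. Of each gene list up to 2 members per direction were taken by p. The 7 peaks that passed under predicted, clone or no gene names, other list genes, and the peaks where both marks separated the groups were added after their values were seen. The members and lists were chosen with earlier results of these data known. Samples were grouped by title. Alternatives covered scaling, pseudocount, filter, variance model, library weights, covariates, blocks and each library left out.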

Additional observations from a re-analysis of the deposited data

Results flagged for a closer look

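In 24 of 308 groups of 4 or 10 values the highest or lowest library stood far from the others, and chance sets about 1 in 20 groups apart in this way. Of the library measures, these were the total reads of H3K4me3 aged group 1 replicate 3 (48.29 M), the share of reads in peaks of H3K4me3 aged group 3 replicate 6 (36.3%), the H3K27ac epithelial score of aged group 3 replicate 10 (1.259) and the H3K27ac leukocyte score of aged group 1 replicate 4 (2.326).

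Values below are log2 RPKM. In H3K4me3, aged group 1 replicate 2 stood low at Bahcc1 (3.035), Igfbp6 (2.721) and Hoxc10 (0.9182). Replicate 3 stood high at chr7:17539150 (-2.126) and Kdr (3.139) and low at Oas2 (0.5333) and Cat (4.246), and replicate 4 stood low at Agmo (2.333) and high at Csf1r (3.734). In aged group 3, replicate 10 stood low at Itgae (2.304) and Hmga2 (2.925), and replicate 4 stood high at Hoxc5 (1.922).

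In H3K27ac, aged group 1 replicate 2 stood low at Sestd1 (-1.17), Foxc1 (0.1657) and Bahcc1 (1.442), replicate 3 high at Lama4 (1.923) and replicate 4 low at Tgfb3 (2.074). Aged group 3 replicate 10 stood low at Ikzf3 (0.9651), Fbln1 (1.687) and Cdkn2b (0.7324). The share of groups set apart includes peaks chosen for their group difference.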

How the results depend on the processing

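Counts are given as H3K4me3 higher and lower, then H3K27ac higher and lower, against 15 and 0, then 0 and 0. They were 265 and 3, 0 and 0 in the values as deposited, and 232 and 59, 1 and 0 with aged groups 1 to 3 in one model. They were 121 and 28, 1 and 0 without a variance trend, 72 and 3, 0 and 0 with robust variances, and 45 and 1, 7 and 0 with age as a line in weeks. Library weights gave 5032 and 5581, 10929 and 11335. Log2 total reads as a covariate gave 1 and 0, 255 and 13. All 4 counts were 0 after median centring, with a pseudocount of 1 RPKM, without the lowest 25% of peaks, with a factor for the code digit, within digits 1 to 4, among mouse numbers above 100, with the marker score as a covariate, and with the share of reads in peaks as a covariate, which was chosen after seeing the data. The causes were not tested.

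With the replicate number as a block (replicate block) the counts were 0 and 0, 0 and 0. The labels do not say that the numbers pair animals. After subtraction of group means, libraries of the same number correlated at 0.122, -0.101, 0.278 and -0.081 in H3K4me3. In H3K27ac they correlated at 0.231, -0.234, 0.432 and -0.14. In the 2 marks 1 of 4 and 2 of 4 correlated best with their own number. So few pairs cannot decide whether libraries of the same number share a factor.

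Leaving out 1 library at a time gave 0 to 1485 and 0 to 696 H3K4me3 peaks and 0 to 1720 and 0 to 392 H3K27ac peaks. Beyond the values given above for aged group 3 replicates 3, 4 and 10, the counts were 36 and 1, 12 and 0 without aged group 1 replicate 2, 0 and 1, 0 and 0 without aged group 1 replicate 1, and 1 and 0, 0 and 0 without aged group 1 replicate 3. They were 2 and 0, 1 and 0 without aged group 3 replicate 5, 2 and 0, 0 and 0 without replicate 7, and 0 in all without aged group 1 replicate 4 or aged group 3 replicates 1, 2, 6, 8 or 9.

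Of 140 named differences 5 changed sign, all with the marker score as a covariate: H3K4me3 at Igfbp4 (0.029), Per1 (0.0495) and Hlf (0.051), and H3K27ac at Rnf43 (-0.0091) and Hoxd11 (0.0488). The others kept their sign under every alternative in which they were measured. Whether depth or the number of libraries limits the calls was not tested.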
